A study of Homo sapiens with 15 samples.

Results

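The MYC and MAX network is a set of transcription factors that share a dimerization partner or its close relative, and 9 of its genes were followed here in AML cells after loss of the ubiquitin ligase RNF5. The genes were taken by symbol, 1 row per gene identifier, out of 57820 identifiers in all, and are MYC, MAX, MXD1, MXI1, MXD3, MXD4, MNT, MGA and MLX. All 9 were above 0 in each of the 15 libraries, so none was lost to the filter on low counts that the authors applied within each line. The lines were MOLM-13 (MLL-rearranged and monocytic), U937 (with monocytic features) and HL-60 (promyelocytic). They were transduced either with the empty lentiviral vector pLKO or with a vector that expresses a short hairpin against RNF5 (shRNF5). No drug treatment of these cultures is named in the sources used here. There were 3 pLKO and 2 shRNF5 libraries of MOLM-13, 4 of U937 split evenly between the constructs, and 6 of HL-60, likewise split evenly. Sample labels place the harvest 7 days after knockdown and the series design places it at 5 days, and which RNF5 hairpin was sequenced is not named in the text of the study. Labels and methods also differ on the library kit, the first naming a 3′ end kit and the second a directional poly(A) kit, so a value is best compared between libraries of one gene and not between genes.

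MYC pairs with MAX and activates genes through the E-box, a short palindrome, and growth genes for ribosome assembly and nucleotide synthesis are among its best known targets. MXD1, MXI1, MXD3, MXD4, MNT and MGA compete with MYC for MAX and repress, the MXD proteins and MNT through the Sin3 corepressor with histone deacetylases and MGA through a variant Polycomb complex. MLX is a relative of MAX that pairs with MondoA (MLXIP) or ChREBP (MLXIPL) and controls genes of glucose handling such as TXNIP. In myeloid cells MYC falls and MXD1 rises as cells differentiate, and HL-60 is known for extra copies of MYC.

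To show what kind of sequence this network reads, RefSeq promoters (250 bases before to 50 bases after the start) were searched for the E-box CACGTG, which reads the same on both strands. It was found in 3 of 13 promoters of the 8 members in the table, those of MXD4, MNT and MLX, while the promoter of the remaining member was not analysed here. For comparison, 7.3% of all 35116 promoters held it. Each window is printed 5′ to 3′ along the gene with the E-box in capitals, and the windows lie on GRCh37 at chr4:2264057-2264086 on the reverse strand for MXD4, chr17:2304530-2304559 on the reverse strand for MNT and chr17:40719056-40719085 on the forward strand for MLX.
MXD4: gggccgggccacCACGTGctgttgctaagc
MNT: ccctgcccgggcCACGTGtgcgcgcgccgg
MLX: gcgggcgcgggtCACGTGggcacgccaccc
The first base of the motif lay at position -238 from the start in MXD4, -193 in MNT and -50 in MLX, and the bases on either side of it differed between the 3 genes. A match describes the sequence only and is not a measured binding site.

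RNF5 itself was low in every shRNF5 library. Its normalized read count was 1223, 1017 and 1020 with pLKO and 76 and 81 with shRNF5 in MOLM-13. U937 had 648 and 843 against 46 and 74, and HL-60 had 506, 689 and 545 against 37, 133 and 43. The groups did not overlap in any line. On the log2 scale the change was -3.77 for MOLM-13 (limma adjusted p = 0.000336), -3.64 for U937 (0.00287) and -3.25 for HL-60 (0.00125). All 9 myeloid markers were above 0 in all 6 groups, and erythroid markers (4 genes) were at 0 throughout. T and B cell markers were at 0 in MOLM-13, with 2 of 6 above 0 in U937 (summed 65 to 126) and 1 of 6 in HL-60 (summed 22 to 44). Of 6 epithelial and fibroblast markers, 1 was above 0 and only in U937, COL1A1, at 234 and 39 with pLKO and 15 to 29 with shRNF5. The pLKO libraries of U937 stood further apart from each other than any other pair of replicates, with an SD of the log2 difference over genes of 0.63 against 0.26 to 0.52 elsewhere, and members in U937 are therefore given with and without pLKO replicate 2. Without that library no gene passed in U937 by limma, RNF5 included (-3.83, adjusted p = 0.256), so no U937 call given here held without it. Estimated depth was 9700000 to 15300000 reads with pLKO and 24400000 to 63800000 with shRNF5 in MOLM-13, and between 13300000 and 21400000 in all libraries of the other lines. The part of this difference in depth in the MOLM-13 values was not tested. The member with the fewest reads, MXD3 in a MOLM-13 pLKO library, had about 93.

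After loss of RNF5, in HL-60 MYC fell and MXD3 rose, in U937 MLX rose and MXD3 fell, and in MOLM-13 MXD4 rose, by limma within each line on log2(normalized read count + 1). To count as changed, a gene needed an adjusted p-value (Benjamini-Hochberg over all genes tested) under 0.1 together with a log2 fold change beyond 0.4 in either direction. In MOLM-13 1 of 9 members was called, where 2.04% of 13026 genes were called (1.03% higher and 1.01% lower with shRNF5). In U937 2 of 9 were called, 1 in each direction, where 15.7% of 13165 genes were (6.92% higher and 8.74% lower). In HL-60 2 of 9 were called, 1 in each direction, where 25.9% of 12570 genes were (13.6% higher and 12.3% lower). Read against these shares, the counts in U937 and HL-60 do not set the members apart from other genes. The groups did not overlap for 5 members (MOLM-13), 6 (U937) and 3 (HL-60), beside 38.7%, 59.2% and 38.5% of all genes tested. As a median over the 9 members, the log2 fold change was 0.36 for MOLM-13, -0.36 for U937 and -0.18 for HL-60, beside 0.0073, 0.0042 and 0.0020 over all genes. Nothing in the labels says whether replicates were separate cultures, so p-values measure the spread between these libraries, and in RNA from whole cultures fewer cells of a kind and less RNA per cell cannot be told apart.

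**Figure D1:**
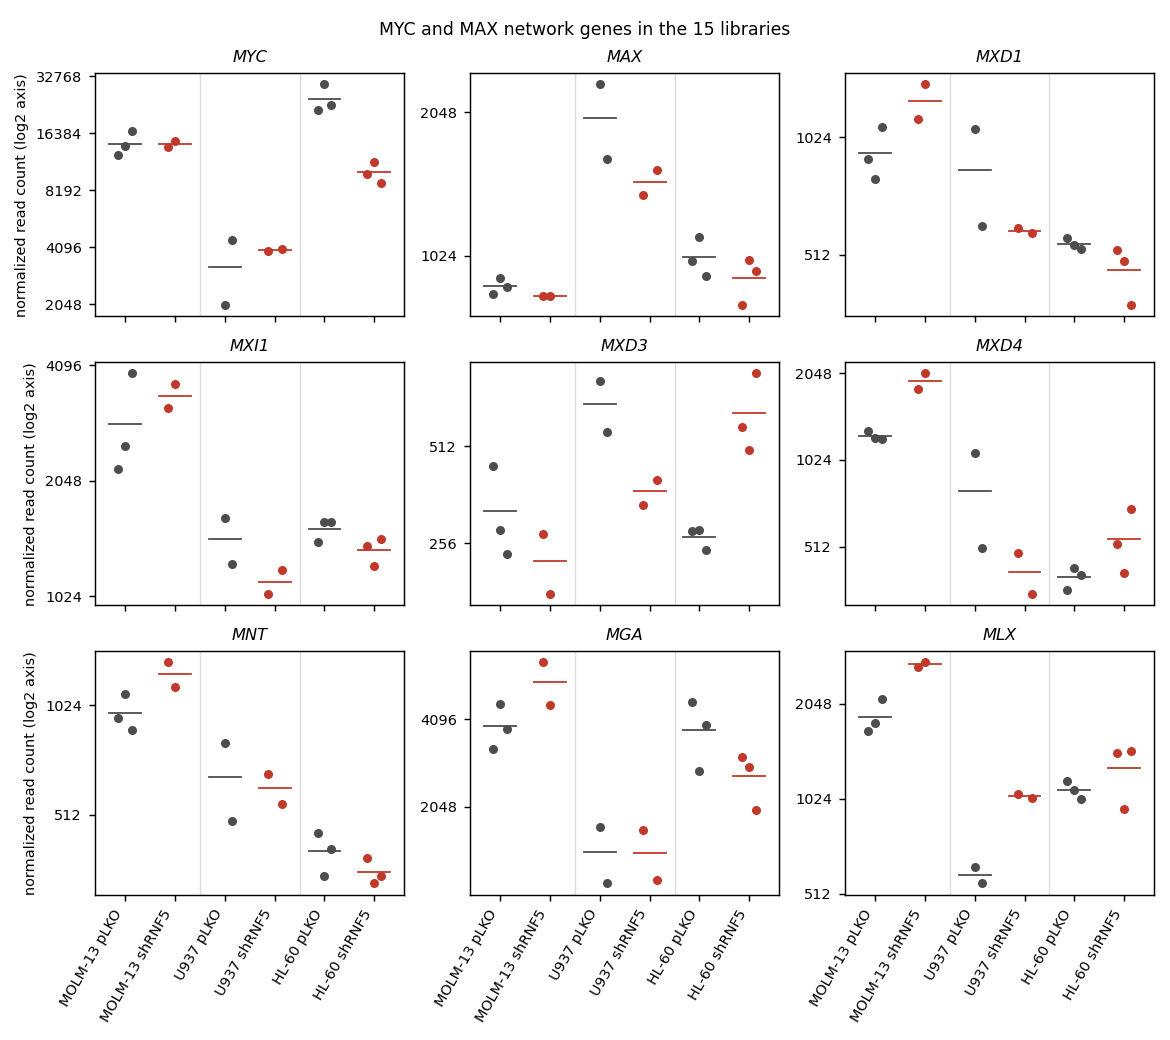
Normalized read count of the 9 members in each of the 15 libraries (vertical log2 axis, own scale per gene), by line and construct, with pLKO in grey and shRNF5 in red, 1 point per library and a line at the group mean. MYC in HL-60 sits at 21613 to 29696 with pLKO and 8948 to 11565 with shRNF5, while MYC in MOLM-13 overlaps between the constructs.

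**Figure D2:**
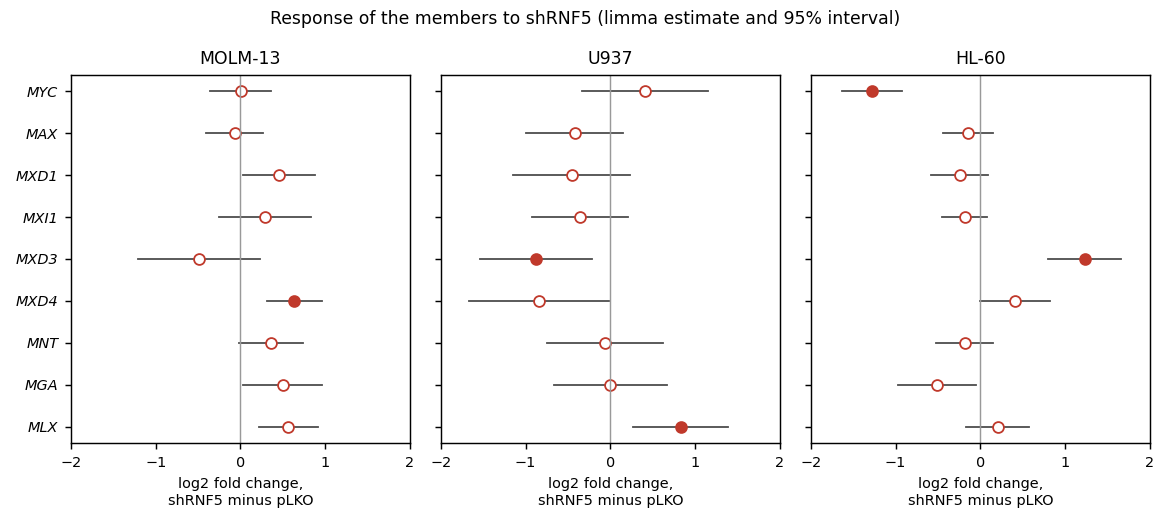
Log2 fold change of each member, shRNF5 minus pLKO, in each line (horizontal axis), as the limma estimate with its 95% interval, with filled points for genes called changed. Called members are MXD4 in MOLM-13, MLX and MXD3 in U937, and MYC and MXD3 in HL-60.

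MYC (ENSG00000136997.10) encodes the activating partner of the network and spans bases 128747680 to 128755197 of chromosome 8 (GRCh37, forward strand). Positions of the other members are on the same build. In HL-60 its value was 21613, 29696 and 23014 with pLKO and 10002, 11565 and 8948 with shRNF5. Every shRNF5 library was below every pLKO library, and the means were 24774 ± 4319 (SD, n = 3) and 10172 ± 1317 (SD, n = 3). MYC fell by 1.28 on the log2 scale (SE 0.16, limma adjusted p = 0.00134), which is 2.43-fold. The call held under all 17 other settings tried, leaving out each library included, with adjusted p-values from 0.000428 to 0.0112. In MOLM-13 MYC stood at 12527, 14048 and 16774 with pLKO and at 13922 and 14890 with shRNF5. Both shRNF5 libraries lay inside the pLKO range, and the difference was 0.0053 (95% interval -0.35 to 0.37, limma adjusted p = 0.99). U937 had the lowest MYC values of the 3 lines, 2018 and 4450 with pLKO and 3906 and 4023 with shRNF5. There the shRNF5 libraries lay between the pLKO libraries, with a log2 fold change of 0.40 (95% interval -0.34 to 1.15, limma adjusted p = 0.463). Without pLKO replicate 2 the value was -0.17 (adjusted p = 0.661), and without pLKO replicate 3 it was 0.97 and passed (adjusted p = 0.0748), so a single control library sets the direction.

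The response of MYC differed between lines when the difference itself was tested in one limma fit over all 15 libraries. Relative to HL-60, the log2 fold change was 1.28 higher in MOLM-13 (SE 0.34, adjusted p = 0.0485) and 1.68 higher in U937 (SE 0.35, adjusted p = 0.0038). The first was lost without MOLM-13 pLKO replicate 1, either MOLM-13 shRNF5 library or HL-60 shRNF5 replicate 3 (adjusted p from 0.101 to 0.186), and the second held under all 19 other settings. Differences passed in 2 of 9 members between MOLM-13 and U937, in 2 of 9 between MOLM-13 and HL-60 and in 4 of 9 between U937 and HL-60, where 15.4%, 8.82% and 37.2% of 11072 genes passed. Levels themselves are compared across lines as a description, since each line was normalized on its own. MYC had the highest mean of the 9 members in all 6 groups, both by value and per kilobase of exon. As the library kit is not settled, this order of genes is a description only, and scaling by length would not suit a 3′ end kit.

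MAX, the partner of MYC and of its competitors, lies on chromosome 14 from 65472892 to 65569413 on the reverse strand. It varied least in MOLM-13, at 849, 919 and 879 with pLKO and 843 and 841 with shRNF5. In HL-60 it was 996, 1123 and 930 with pLKO and 805, 1003 and 949 with shRNF5. The change was -0.067 in MOLM-13 (95% interval -0.40 to 0.27) and -0.15 in HL-60 (95% interval -0.44 to 0.15), and neither passed (limma adjusted p = 0.845 and 0.464). U937 held more MAX than the other lines, at 2346 and 1632 with pLKO and 1376 and 1547 with shRNF5. Its log2 fold change of -0.42 did not pass (limma adjusted p = 0.32) and was -0.16 without pLKO replicate 2.

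Because a scaling factor of a library cancels in a ratio of its own values, MYC was also divided by MAX within each library. In HL-60 the ratio was 21.7, 26.4 and 24.7 with pLKO and 12.4, 11.5 and 9.43 with shRNF5. MOLM-13 gave 14.8, 15.3 and 19.1 with pLKO and 16.5 and 17.7 with shRNF5. U937 gave 0.86 and 2.73 with pLKO and 2.84 and 2.60 with shRNF5. The groups separated in HL-60 and overlapped in MOLM-13, and in U937 pLKO replicate 3 lay between the shRNF5 libraries while pLKO replicate 2 stood below all the rest. MYC took 68.6% to 78.5% of the summed values of the 9 members with pLKO in HL-60 and 52.4% to 59.95% with shRNF5. MLX divided by MAX separated in U937, at 0.265 to 0.338 with pLKO and 0.665 to 0.767 with shRNF5. Gene length is the same in each ratio, so the ratio compares libraries and does not give the number of MYC molecules per MAX molecule.

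**Figure D3:**
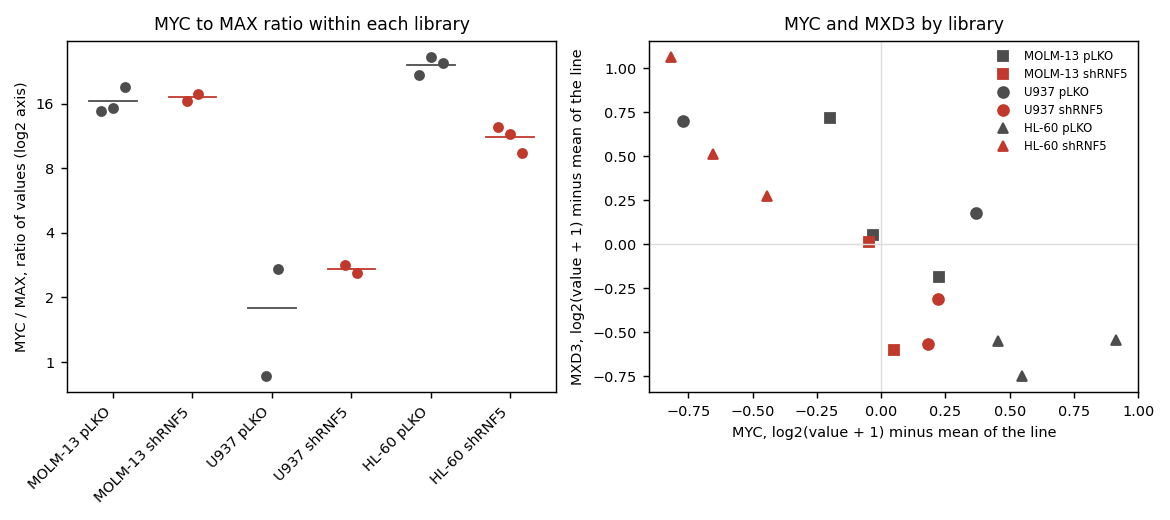
Left, MYC divided by MAX within each library (log2 axis), by line and construct with a line at the group mean, falling from 21.7 to 26.4 with pLKO to 9.43 to 12.4 with shRNF5 in HL-60. Right, MYC and MXD3 as log2(value + 1) minus the mean of their line, 1 point per library, with HL-60 (triangles) split between the constructs, MOLM-13 as squares and U937 as circles.

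MXD3 encodes a MAX partner that represses E-box genes and is known to be expressed in dividing cells. It lies on chromosome 5 from 176728462 to 176739758 on the reverse strand. In HL-60 its value was 280, 281 and 244 with pLKO and 586, 497 and 862 with shRNF5. All shRNF5 libraries were above all pLKO libraries, and MXD3 rose by 1.23 on the log2 scale (SE 0.20, limma adjusted p = 0.0035), a call that held under all 17 other settings with adjusted p-values from 0.00104 to 0.024. U937 went the other way, with 818 and 568 under pLKO and 338 and 404 under shRNF5. MXD3 fell there by 0.88 (SE 0.30, limma adjusted p = 0.0939), a call that did not hold without pLKO replicate 2 (-0.62, adjusted p = 0.295), shRNF5 replicate 1 (-0.75, 0.663) or shRNF5 replicate 3 (-1.01, 0.297). In MOLM-13 it was 446, 281 and 238 with pLKO and 273 and 178 with shRNF5, with overlapping groups and a change of -0.49 (95% interval -1.21 to 0.23, limma adjusted p = 0.447). Minus the response in HL-60, that in MOLM-13 was -1.72 (adjusted p = 0.0277) and that in U937 was -2.11 (adjusted p = 0.00234).

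MXD3 shares its locus with RAB24 on the same strand and PRELID1 on the opposite strand, and the strand setting of the counting is not given in the sources used here. RAB24 was 76 to 133 with pLKO and 131 to 159 with shRNF5 in HL-60, and PRELID1 was 3310 to 4520 and 3134 to 4644. Neither neighbour was called in HL-60, with changes of 0.52 (limma adjusted p = 0.133) and 0.050 (adjusted p = 0.856). In U937 RAB24 changed by -0.81 (adjusted p = 0.21) and PRELID1 by 0.90 (adjusted p = 0.107). The part of these overlaps in the MXD3 values was not tested.

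Across the 15 libraries, each centred on the mean of its line, MXD3 and MYC had a Pearson r of -0.84, the most negative value of any pair of members. Libraries of a group share their construct, so the points are not independent and no p is given. Without the HL-60 libraries r was -0.67 over 9 libraries. Of these, U937 pLKO replicate 2 lay furthest from its line mean for MYC (-0.77, with 0.70 for MXD3). No r was computed without that library, so how far -0.67 rests on it was not tested.

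MXD4, another repressor that pairs with MAX and carries an E-box in the window printed above, lies on chromosome 4 from 2249159 to 2263836 on the reverse strand. In MOLM-13 it was 1286, 1218 and 1207 with pLKO and 1806 and 2048 with shRNF5. The groups did not overlap, and MXD4 rose by 0.64 (SE 0.14, limma adjusted p = 0.0964), or 1.55-fold. This call sits at the threshold and was lost under 8 of 17 other settings, without pLKO replicate 2 (adjusted p = 0.227), pLKO replicate 3 (0.125), shRNF5 replicate 1 (0.573) or shRNF5 replicate 2 (0.771) among them, while the value stayed between 0.55 and 0.73. U937 had 1085 and 506 with pLKO and 488 and 349 with shRNF5. That change of -0.84 did not pass (limma adjusted p = 0.175). It was -0.29 without pLKO replicate 2 and passed at -1.39 without pLKO replicate 3 (adjusted p = 0.0758). HL-60 had 362, 432 and 408 with pLKO and 521, 414 and 692 with shRNF5, overlapping groups with a change of 0.41 (limma adjusted p = 0.145). The response in MOLM-13 minus that in U937 was 1.48 (adjusted p = 0.0374), and U937 minus HL-60 was -1.25 (adjusted p = 0.0235). Without U937 pLKO replicate 2 these were 0.93 and -0.70, and neither passed (adjusted p = 0.159 and 0.137).

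MXD1 is the member known to take the place of MYC on MAX when myeloid cells mature, and it lies on chromosome 2 from 70124820 to 70170077 on the forward strand. MOLM-13 had 902, 802 and 1091 with pLKO and 1141 and 1401 with shRNF5. HL-60 had 566, 541 and 530 with pLKO and 526, 493 and 379 with shRNF5. The shRNF5 libraries were above the pLKO range in MOLM-13 and below it in HL-60, with changes of 0.45 and -0.24 that did not pass (limma adjusted p = 0.273 and 0.283). In U937 the values were 1078 and 606 with pLKO and 598 and 580 with shRNF5, a change of -0.46 (limma adjusted p = 0.369) that was -0.041 without pLKO replicate 2. MXD1 overlaps SNRNP27 on the same strand, whose value ranged from 421 to 885 over all libraries and which was not called in any line. The response of MXD1 in MOLM-13 exceeded that in U937 by 0.91 (adjusted p = 0.0964), a call lost under 14 of 19 other settings, with 0.49 without U937 pLKO replicate 2 (adjusted p = 0.371).

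MXI1, also called MXD2, is a repressor of the same family and lies on chromosome 10 from 111967363 to 112047123 on the forward strand. MOLM-13 had 2202, 2529 and 3904 with pLKO and 3166 and 3650 with shRNF5. U937 had 1640 and 1239 against 1034 and 1198, and HL-60 had 1413, 1595 and 1600 against 1386, 1229 and 1446. The groups overlapped in MOLM-13 and HL-60 and just missed overlap in U937. The change in U937 was -0.15 without pLKO replicate 2. Changes with all libraries were 0.28, -0.36 and -0.18, with limma adjusted p-values of 0.567, 0.393 and 0.304.

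MNT, a widely expressed antagonist of MYC with an E-box in its window above, lies on chromosome 17 from 2287367 to 2304398 on the reverse strand. Its values were 944, 1098 and 876 with pLKO and 1343 and 1150 with shRNF5 in MOLM-13. U937 had 806 and 492 against 663 and 549, and HL-60 had 456, 349 and 414 against 390, 332 and 349. Only in MOLM-13 did the groups not overlap, and the change of 0.36 did not pass there (limma adjusted p = 0.315), nor did -0.062 in U937 (0.919, with 0.29 without pLKO replicate 2) and -0.18 in HL-60 (0.427).

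MGA, the largest member and the scaffold of the Polycomb complex PRC1.6, lies on chromosome 15 from 41913332 to 42065279 on the forward strand and has 20074 bases of exon. MOLM-13 had 3233, 4599 and 3779 with pLKO and 6407 and 4562 with shRNF5. HL-60 had 4667, 2711 and 3906 with pLKO and 3026, 2807 and 2005 with shRNF5. The groups overlapped in both lines, with changes of 0.50 for MOLM-13 (limma adjusted p = 0.27) and -0.51 for HL-60 (adjusted p = 0.106). U937 had 1750 and 1120 with pLKO and 1705 and 1151 with shRNF5, a change of 0.00090 (95% interval -0.66 to 0.66) that was 0.32 without pLKO replicate 2 and -0.32 without pLKO replicate 3. In HL-60 MGA passed without pLKO replicate 2 (-0.73, adjusted p = 0.0216) or shRNF5 replicate 1 (-0.63, 0.075) and with a replicate block (-0.51, 0.0574). Genes with at least 15000 bases of exon, MGA among them, were taken at a limit set after the values were seen. Their median log2 fold changes were 0.19 over 647 genes in MOLM-13, 0.022 over 650 in U937 and -0.14 over 649 in HL-60. The part of transcript length in the MGA values was not tested.

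MLX, the MAX relative with an E-box close to its start in the window above, lies on chromosome 17 from 40719090 to 40725257 on the forward strand. In U937 it was 621 and 551 with pLKO and 1056 and 1028 with shRNF5. The groups were well apart, and MLX rose by 0.83 (SE 0.25, limma adjusted p = 0.0736), or 1.78-fold. Without pLKO replicate 2 the value was 0.92 (adjusted p = 0.256, where no gene passed), and leaving out any of the 4 libraries kept it between 0.75 and 0.92 with the call lost (adjusted p from 0.108 to 0.635). MOLM-13 had 1676, 1773 and 2116 with pLKO and 2682 and 2768 with shRNF5, again without overlap. That change of 0.56 did not pass (limma adjusted p = 0.141), although it did without pLKO replicate 1 (0.49, adjusted p = 0.0948). HL-60 had 1162, 1089 and 1020 with pLKO and 1428, 951 and 1453 with shRNF5, overlapping groups with a change of 0.20 (limma adjusted p = 0.41). The response was higher in U937 than in HL-60 by 0.63 (adjusted p = 0.0743), a call lost under 6 of 19 other settings. PSMC3IP overlaps MLX on the opposite strand and was not called in any line, at 267 to 517 in MOLM-13, 78 to 258 in U937 and 304 to 429 in HL-60.

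The partners of MLX, MondoA and ChREBP, and targets of MondoA were followed beside it. MondoA (MLXIP) was 2150 and 1590 with pLKO and 1458 and 1445 with shRNF5 in U937, a change of -0.35 (limma adjusted p = 0.393), and it changed by 0.14 in MOLM-13 (0.775) and 0.12 in HL-60 (0.532). TXNIP, a MondoA target that restrains glucose uptake, was 5662 and 834 with pLKO and 1648 and 822 with shRNF5 in U937. Its pLKO libraries differed more than the constructs did, and no change passed in any line (-0.90 in U937, 0.68 in MOLM-13 and 0.057 for HL-60, where limma gave adjusted p = 0.413, 0.435 and 0.854). Without pLKO replicate 2 TXNIP in U937 was 0.48 (adjusted p = 0.564), and without pLKO replicate 3 it was -2.28 and passed (adjusted p = 0.0695), so 1 control library sets its sign and its call. ARRDC4, the other target followed, was listed at 0 in U937 and was not called in MOLM-13 or HL-60. ChREBP (MLXIPL) was listed at 0 in MOLM-13 and U937, and in HL-60 it was 9, 13 and 8 with pLKO and 55, 44 and 50 with shRNF5. These are low values, and MLXIPL rose by 2.22 (SE 0.32, limma adjusted p = 0.00218). Of the MYC relatives, MYCN was at 0 in all libraries and MYCL was at 0 in HL-60. MYCL was 16 and 45 with pLKO and 101 and 104 with shRNF5 in U937, where it rose by 1.89 (SE 0.57, limma adjusted p = 0.0714, lost without any one library but pLKO replicate 3), and it was not called in MOLM-13.

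Among genes known to be induced by MYC, mostly of ribosome assembly, calls went down in HL-60 and up in U937. In HL-60, 20 of 65 measured growth genes fell and none rose, where 12.3% of all genes fell and 13.6% rose. The median log2 fold change was -0.30, and 8 of 65 had a value above 0. The largest falls were in IPO4, a nuclear import receptor (-1.53, limma adjusted p = 0.00567), and TMEM97, a membrane protein of sterol handling (-1.12, adjusted p = 0.00157). Leaving out each library in turn gave 16 to 27 growth genes that fell in HL-60. In U937, 16 of 64 rose and none fell, where 6.92% of all genes rose and 8.74% fell. The median was 0.57, with 55 of 64 above 0. TFRC, the transferrin receptor, was 1400 and 2378 with pLKO and 15084 and 9536 with shRNF5 there and rose by 2.72 (limma adjusted p = 0.00558), and UTP20, of the small ribosomal subunit processome, rose by 1.49 (adjusted p = 0.0373). Without U937 pLKO replicate 2, shRNF5 replicate 1 or shRNF5 replicate 3, none of the 64 passed, with 0 to 6 calls over all genes, and without pLKO replicate 3 there were 26. The median was 0.23 without pLKO replicate 2, with 49 of 64 above 0, and 0.75 without pLKO replicate 3. Of the growth genes, 6 were called in both lines, up in U937 and down in HL-60 (LDHA, MYBBP1A, POLR1B, PPRC1, TCOF1 and UTP20). In MOLM-13 the median was -0.16, with 11 of 65 above 0, and 1 of 65 was called, where 2.04% of all genes were. The called gene was RRS1, a ribosome assembly factor that fell by 0.96 (limma adjusted p = 0.067). Without MOLM-13 pLKO replicate 2 or 3 none of the 65 was called, and without pLKO replicate 1 there were 2 falls. The value of RRS1 stayed between -1.05 and -0.85 with any MOLM-13 library left out. The E-box was found in 29 of 71 promoters of the 54 growth genes in the table, or 40.8%.

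**Figure D4:**
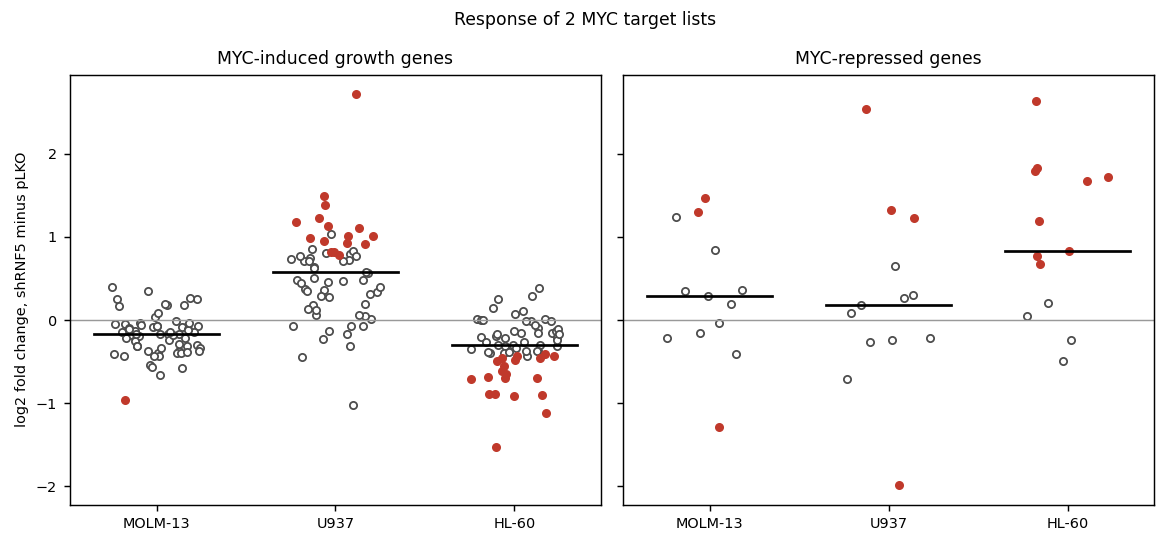
Log2 fold change, shRNF5 minus pLKO (vertical axis), of the growth genes induced by MYC (left) and of the genes repressed by MYC (right) in each line, 1 point per gene, red where called, with a black line at the median. The growth genes have medians of -0.16 (MOLM-13), 0.57 (U937) and -0.30 (HL-60), and the repressed genes of 0.29, 0.18 and 0.83.

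Genes known to be repressed by MYC, chiefly cell cycle inhibitors and genes of growth arrest, rose in HL-60. There 9 of 13 measured genes rose and none fell, where 13.6% of all genes rose and 12.3% fell. The median was 0.83, and leaving out each library in turn gave 8 to 9 rises. In MOLM-13 2 of 13 rose and 1 fell (median 0.29), and in U937 3 of 13 rose and 1 fell (median 0.18). Of all genes, 1.03% rose and 1.01% fell in MOLM-13, and 6.92% rose and 8.74% fell in U937. Leaving out each library gave 0 to 3 rises in MOLM-13 and 0 to 2 in U937, where the median was 0.57 without pLKO replicate 2 and -0.16 without pLKO replicate 3. CDKN1A, which encodes the cell cycle inhibitor p21, rose in all 3 lines. Its value was 4671, 4468 and 6899 with pLKO and 10758 and 15509 with shRNF5 in MOLM-13. U937 had 201 and 115 against 1057 and 744, and HL-60, where it was low, had 12, 7 and 7 against 41, 21 and 39. The constructs did not overlap in any line, with changes of 1.30, 2.54 and 1.82 (limma adjusted p = 0.0682, 0.0117 and 0.0115). BTG2, an antiproliferative factor, rose by 1.46 in MOLM-13, FTH1, the ferritin heavy chain, by 1.32 in U937, and CDKN1C, another cell cycle inhibitor, by 2.63 in HL-60 (limma adjusted p = 0.0844, 0.0246 and 0.00125). BTG2 also rose in U937 (1.23) and HL-60 (1.72), and FTH1 in HL-60 (1.79) (limma adjusted p = 0.0615, 0.00613 and 0.00117). FTH1 did not pass in MOLM-13 (0.84, limma adjusted p = 0.216). With a library left out, BTG2 ranged from 1.08 to 1.84 in MOLM-13 and 0.98 to 1.47 in U937. Its call was lost in most of these fits in MOLM-13 and in all of them in U937, where each left a group with a single library. NDRG2 fell by 1.28 in MOLM-13 and GADD45A, a growth arrest gene, fell by 1.98 in U937 (adjusted p = 0.0951 and 0.0197). The NDRG2 call was lost without MOLM-13 pLKO replicate 2 or 3, and its value stayed between -1.47 and -1.09 with any MOLM-13 library left out. CDKN1A was called in MOLM-13, where MYC changed by 0.0053 on the log2 scale. The part of MYC in the CDKN1A values was not tested, and MYC protein was not measured here. With a library left out the CDKN1A values stayed within 1.037 to 1.565 in MOLM-13 (called in 2 of 5 fits), 2.14 to 2.94 in U937 (1 of 4) and 1.66 to 2.12 in HL-60 (6 of 6). Without U937 pLKO replicate 2, FTH1 was 1.26 and GADD45A was -1.73. The E-box was in 3 of 14 promoters of repressed genes, or 21.4%.

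Myeloid markers moved with the construct in HL-60. Of 9 markers, 6 rose and 1 fell, where 13.6% of all genes rose and 12.3% fell. With a library left out, 3 to 6 rose and 0 to 1 fell. There were 3 rises without pLKO replicate 2 or shRNF5 replicate 3, and no fall without pLKO replicate 1 or shRNF5 replicate 2. The summed value of the markers was 116420 to 141775 with pLKO and 155153 to 224262 with shRNF5. MPO made up most of that sum, with means of 120628 (pLKO) and 184755 (shRNF5), and rose by 0.60 (limma adjusted p = 0.078). TYROBP, an adaptor of myeloid receptors, rose by 1.38 and LYZ, lysozyme, whose groups overlapped, by 1.25, and CD33 fell by 0.45 (limma adjusted p = 0.00445, 0.0777 and 0.0241). In MOLM-13 none of the 9 passed (sums of 41521 to 64905 and 43356 to 70457), and in U937 FCER1G, a receptor subunit, alone did, rising by 0.90 (adjusted p = 0.0737), a call lost without any one of the 4 libraries. The part of these markers in the MYC result was not tested.

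SAP18, a subunit of the Sin3 corepressor that the MXD proteins recruit, fell in all 3 lines. It was 4517, 4298 and 4009 with pLKO and 1737 and 1887 with shRNF5 in MOLM-13. U937 had 1343 and 1675 against 721 and 768, and HL-60 had 2009, 2358 and 2028 against 845, 1451 and 1093. The constructs did not overlap, and the falls were 1.24, 1.01 and 0.95 on the log2 scale (limma adjusted p = 0.0255, 0.0434 and 0.00661). The call held in 6 of 6 fits with a library left out in HL-60, in 2 of 5 in MOLM-13 (not without pLKO replicate 2 or either shRNF5 library) and in 1 of 4 in U937 (only without pLKO replicate 3), while the value stayed between -1.30 and -1.18 in MOLM-13, -1.17 and -0.85 in U937, and -1.14 and -0.75 in HL-60. Of the 17 Sin3 genes, 1 fell in MOLM-13, 1 rose and 2 fell in U937, and 1 rose and 2 fell in HL-60, beside 2.04%, 15.7% and 25.9% of all genes called, so the counts in U937 and HL-60 do not set the list apart. ARID4A, which binds the retinoblastoma protein, fell by 0.88 in U937 and rose by 0.45 in HL-60, and SAP130 rose by 0.91 in U937 and fell by 0.55 in HL-60 (limma adjusted p from 0.0351 to 0.0604). With a library left out, ARID4A stayed between -1.07 and -0.69 in U937, and SAP130 between 0.84 and 0.98. Both calls were lost in most of these U937 fits, each of which left a group with a single library. In HL-60 the call of each gene held in 4 of 6 such fits.

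Of 14 MYC coactivators, none was called in MOLM-13, where 2.04% of all genes were. In U937 2 fell, the acetyltransferase KAT2A by 1.03 and ZBTB17, the MYC partner MIZ1, by 0.96, and in HL-60 TRRAP, the scaffold of acetyltransferase complexes, fell by 0.64 (limma adjusted p = 0.0373, 0.0737 and 0.0677). Falls made up 14.3% of the coactivators in U937 and 7.14% in HL-60, where 8.74% and 12.3% of all genes fell. Taking rises and falls together, 15.7% and 25.9% of all genes were called. Few coactivators lay above 0 in HL-60, 2 of 14, against 9 for U937 and 7 for MOLM-13. Their median log2 fold change was -0.25 for HL-60 (all genes 0.0020), 0.10 for U937 and -0.016 for MOLM-13. With any one HL-60 library left out, the HL-60 median stayed between -0.32 and -0.16. Leaving out U937 pLKO replicate 2 or either shRNF5 library gave no call there, leaving out pLKO replicate 3 gave 3 rises and 2 falls, and TRRAP held in 3 of 6 such fits in HL-60. Genes that act on MYC protein turnover gave 1 rise of 14 in MOLM-13, where 1.03% of all genes rose. In U937 1 rose and 1 fell of 15, where 6.92% of all genes rose and 8.74% fell. In HL-60 2 rose and 3 fell of 15, where 13.6% of all genes rose and 12.3% fell. The counts in U937 and HL-60 do not set this list apart. With a library left out there were 0 to 2 rises in MOLM-13, 0 to 2 rises and 0 to 1 falls in U937, and 1 to 2 rises and 1 to 3 falls in HL-60, the lowest there without pLKO replicate 3 or shRNF5 replicate 3. In U937 there was no call without pLKO replicate 2 or either shRNF5 library, and in MOLM-13 none without pLKO replicate 2 or either shRNF5 library. USP28, a deubiquitinase that stabilizes MYC, was 161, 166 and 233 with pLKO and 439 and 464 with shRNF5 in MOLM-13 and rose by 1.29 (adjusted p = 0.0682). In U937 KIAA1524, an inhibitor of the phosphatase PP2A, rose by 0.93, and the ubiquitin ligase subunit FBXO32 fell by 1.86 (adjusted p = 0.0522 and 0.0635). In HL-60 the kinase PIM1 rose by 0.99 and the ligase STUB1 by 0.65, and the ligases MYCBP2 and HUWE1 fell by 0.99 and 0.58 (limma adjusted p from 0.0201 to 0.0916). The groups of MYCBP2, HUWE1 and TRRAP overlapped there. With an HL-60 library left out, the call held in 6 of 6 fits for PIM1, 4 for STUB1, 4 for MYCBP2 and 2 for HUWE1. Among 11 genes of the PRC1.6 complex that holds MGA, RNF2 and RYBP rose in U937, where 6.92% of all genes rose. The rises were 0.86 and 0.72 (limma adjusted p = 0.0749 and 0.0821), and no other call was made in any line. Neither gene passed with any one U937 library left out, although RNF2 stayed between 0.70 and 1.019 and RYBP between 0.68 and 0.76, and the median of the 11 genes went from 0.25 to 0.047 without pLKO replicate 2. With a library left out, PRC1.6 calls were 0 to 1 in each direction in U937 and HL-60 and 0 to 1 falls in MOLM-13.

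Genes with a pattern most like that of each member were sought among 9625 genes above 0 in all libraries with a mean of at least 50 in each line, by Pearson r over the 15 centred libraries. For MYC these were ZNF706 (0.95), DPAGT1 (0.93), ERGIC1 (0.92), PRMT1 (0.92) and KARS (0.91). MXD3 was most like C21orf2, SMTN and NDUFB5 (0.92 to 0.93), MXD4 like KDM4B (0.93) and PLAU (0.92), and MLX like TMEM184B, CDC42EP3 and RAC2 (0.94 to 0.95). The closest to MAX were C1orf174, NR1D1 and SAFB (0.88 to 0.90), to MXD1 ETV6, GAB2 and KDM5B (0.89 to 0.94), and to MXI1 IFIH1, NOA1 and ZDHHC14 (0.88 to 0.96). MNT was most like CCDC93, CLOCK and CASC3 (0.91 to 0.95). MGA was most like CEP350 (0.98), USP24 (0.96) and BIRC6 (0.95), whose exons span 29822, 12042 and 18535 bases where the median gene tested had 4941. Among members, MNT and MGA were the most alike pair (0.86). With a mean of at least 200, 5 of 5 genes for MYC and 21 of 24 for the others were the same.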

How the data were processed

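RNA-seq libraries of MOLM-13, U937 and HL-60 with pLKO or shRNF5 were grouped by their labels. The authors aligned reads to hg19 with STAR, counted them with featureCounts of Subread, and normalized and filtered them within each line with SARTools and edgeR. The deposited values are a score, namely read counts scaled by the authors per library and rounded to whole numbers, with filtered genes at 0. Raw counts were not used here, so no count model was run.

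Genes above 0 in any library of a line were tested with limma 3.58.1 in R 4.3.3 on log2(value + 1), which understates changes of low genes, per line, moderating variances by empirical Bayes along a trend on the mean. For differences between lines, 1 fit held 15 libraries and 11072 genes. Calls needed an adjusted p under 0.1 and, for fold changes, a log2 value beyond 0.4. The procedure was tested on simulated data. The steps between low values gave an estimate of depth, and no counting interval is given. No pair of libraries held identical values.

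Positions and exon lengths came from GENCODE on GRCh37, the build of hg19. Promoters came from RefSeq (GRCh38.p14) and were placed on GRCh37 by exact match. The members, gene lists and tests were chosen with earlier results of these data known. Named genes are the members, RNF5, CDKN1A, TXNIP, SAP18 and MLXIP, in each list and line the 2 called genes with the largest rise and the 2 with the largest fall, and the 5 genes most like MYC and 3 most like each other member, of which 1 is not reported here. MYCL, MYCN, ARRDC4, MPO, the neighbours of members and the 6 growth genes called in both lines were named after their values were seen. Alternatives were pseudocounts of 0.5 and 10, a filter at a mean of 50, median-of-ratios and upper-quartile scaling, variances with no trend or robustly moderated, library weights, one fit over all libraries, a replicate block, a threshold of 0.05 and leaving out each library. For the gene lists, the block, the variance setting and the single fit were added after seeing the data.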

Additional observations from a re-analysis of the deposited data

Results flagged for a closer look

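Differences in the response to shRNF5 between lines were tested directly in one limma fit over 15 libraries at an adjusted p under 0.1. For MOLM-13 minus U937, MOLM-13 minus HL-60 and U937 minus HL-60, 2, 2 and 4 of the 9 members passed, beside 15.4%, 8.82% and 37.2% of 11072 genes, and these counts are not read as particular to the members. For MYC the log2 fold change was higher by 1.28 in MOLM-13 than in HL-60 and by 1.68 in U937 than in HL-60. For MXD3 the difference was -1.72 for MOLM-13 minus HL-60 and -2.11 for U937 minus HL-60. For MXD4 it was 1.48 for MOLM-13 minus U937 and -1.25 for U937 minus HL-60, and for MXD1 0.91 for MOLM-13 minus U937. For MLX it was 0.63 for U937 minus HL-60. The differences of MYC and MXD3 between U937 and HL-60 passed under all 19 other settings tried, with adjusted p-values up to 0.0191 and 0.0173. The rest were each lost under 1 or more settings, MYC between MOLM-13 and HL-60 under 4, MXD3 between MOLM-13 and HL-60 under 1 (without MOLM-13 shRNF5 replicate 2), MXD4 under 3 and 1, MXD1 under 14 and MLX under 6. No cause of these differences was tested.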

How the results depend on the processing

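MYC and MXD3 in HL-60 kept their call under all 17 alternatives. Of 432 alternative values of the member fold changes, 386 kept direction and side of the threshold, 19 lost a call, 16 gained one and 11 changed sign. For the differences between lines these were 464, 29, 14 and 6 of 513. The count of members called in MOLM-13 (1) became 0 with no mean-variance trend, at an adjusted p under 0.05 and in one fit over all libraries, and 3 with library weights. In U937 (2) it became 0 with no trend and at 0.05 and 4 in one fit. Members whose response differed between MOLM-13 and U937 (2) became 1 with no trend and with median-of-ratios scaling. MYC in MOLM-13 changed sign to -0.017 with library weights, and MGA in U937 to -0.044 with upper-quartile scaling. Leaving out each library gave 0 to 2 members called in MOLM-13, 0 to 4 in U937 and 2 to 4 in HL-60. For members whose response differed it gave 0 to 6 for MOLM-13 minus U937, 0 to 4 for MOLM-13 minus HL-60 and 3 to 5 for U937 minus HL-60. The sign changed with a library left out for MYC in MOLM-13 (-0.092 to 0.12), and in U937 for MYC (-0.17 to 0.97), MNT (-0.42 to 0.29) and MGA (-0.32 to 0.32). It also changed for the difference of MYC between MOLM-13 and U937 (-0.97 to 0.17), of MAX between MOLM-13 and HL-60 (-0.012 to 0.15), and between U937 and HL-60 for MXD1 (-0.63 to 0.20), MXI1 (-0.38 to 0.029) and MNT (-0.24 to 0.47). The cause was not tested. Over all genes, leaving out a library gave 1 to 872 calls in MOLM-13 against 266 and 0 to 2369 in U937 against 2062, with 872 without MOLM-13 pLKO replicate 1, 1 without MOLM-13 pLKO replicate 2, 2369 without U937 pLKO replicate 3 and 0 without U937 pLKO replicate 2 or shRNF5 replicate 1, so fits of the same size gave very different counts. Over all genes the calls also moved with library weights in MOLM-13 (2224), with no trend in MOLM-13 (55) and U937 (475), at 0.05 in MOLM-13 (39) and U937 (824), in one fit (598 in MOLM-13 and 5239 in U937) and in HL-60 with a library left out (1970 to 3413 against 3251).

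Replicate numbers were not taken to pair the libraries, and in HL-60 2 of 3 shRNF5 libraries correlated best with their own number. With the number as a block, the members called fell to 0 in MOLM-13 and stood at 3 in HL-60, where MGA passed. Same-numbered libraries correlated across genes at -0.17 and -0.53 in MOLM-13 and at 0.50, 0.16 and -0.11 in HL-60. The block moved the calls over all genes from 266 to 738 in MOLM-13 and from 3251 to 3580 in HL-60. Numbering the MOLM-13 shRNF5 libraries 2 and 3 in the block gave 3 members called, 2495 genes called over all and -0.092 for MYC. U937 shares a single number between its groups, so no block was fitted there. No fit to raw counts was run.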

Other observations

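PVT1, a noncoding RNA gene beside MYC that was looked at after the other values were seen, had 77, 97 and 80 normalized reads with pLKO and 61, 59 and 36 with shRNF5 in HL-60. The groups did not overlap, and PVT1 fell by 0.72 on the log2 scale (SE 0.26, limma adjusted p = 0.0754). In U937 it was 206 and 193 with pLKO and 122 and 153 with shRNF5, a change of -0.54 that did not pass (adjusted p = 0.347). MOLM-13 had 1256, 607 and 656 with pLKO and 857 and 835 with shRNF5, overlapping groups with a change of 0.09 (adjusted p = 0.896).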
